A study of Mus musculus with 6 samples.

Results

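Small RNAs of cultured bone marrow monocytes (BMMs) were sequenced, and 5 miRNA hairpins were followed arm by arm: Mir7-1, Mir7-2, Mir324, Mir193a and Mir3068. The hairpins were selected because their reads were raised in the second library of LPS-treated cells (LPS 2), so they were chosen by their level in LPS 2 against that in the other 5 libraries. That contrast, and anything computed from it, is given as a description with no test. Of 1174 hairpins searched, 5 are members. Of 974 hairpin arms with reads in any library, 8 belong to them, and 7 of these 8 passed the low-count filter that left 319 arms for testing.

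The cells came from wild-type C57BL/6 mice, male and 7 to 10 weeks old at the start of experiments, and were given PBS (control, 3 libraries) or 5 pg/ml LPS for 4 h (LPS, 3 libraries). LPS, or lipopolysaccharide, is the part of the Gram-negative bacterial envelope that Toll-like receptor 4 senses. The question behind the design was which miRNAs such a super-low dose moves in monocytes. Whether replicates were separate mice or cultures is not given in the sources used here, so the spread between libraries may be technical. The medium is named as DMEM in the labels and RPMI in the methods.

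A miRNA gene is transcribed as a longer precursor that folds into a hairpin. Drosha and Dicer cut out a short duplex with one strand from the 5′ arm (5p) and one from the 3′ arm (3p), and usually one strand is loaded into Argonaute while its partner is degraded. The loaded strand finds targets through its seed, bases 2 to 8 from the 5′ end, and the 3′ end can be trimmed or extended afterwards without changing the seed. miR-7 is best known from neurons and endocrine cells, miR-193a and miR-324 have been studied mainly in cancer and development, and little is established about miR-3068.

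The mature strands on which the results turn are shown with the seed in capitals (RefSeq, GRCm38), since no pair of them shares a seed.
miR-7a-5p: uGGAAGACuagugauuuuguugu
miR-3068-5p: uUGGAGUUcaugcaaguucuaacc
miR-324-5p: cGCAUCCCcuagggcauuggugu
miR-193a-3p: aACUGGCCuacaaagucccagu
Their partner strands come from the opposite side of the same hairpins and are needed to ask whether one arm or both moved. The seed of each is marked from the RefSeq start, which not all of their reads share.
miR-7a-1-3p: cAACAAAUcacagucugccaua
miR-3068-3p: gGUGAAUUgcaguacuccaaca
miR-324-3p: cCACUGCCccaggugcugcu
miR-193a-5p: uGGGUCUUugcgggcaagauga

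In GENCODE M21 (GRCm38), Mir7-1 lies at chr13:58392779-58392886 on the minus strand, within an intron of Hnrnpk, which encodes an RNA-binding protein. Mir7-2 lies at chr7:78888277-78888373 on the plus strand and overlaps no annotated gene. Mir324 is at chr11:70012043-70012131 on the plus strand, where it overlaps an exon with UTR of Dvl2, a Wnt signalling adaptor, and an intron of Acadvl on the opposite strand. Mir193a, at chr11:79711969-79712034 on the plus strand, overlaps no gene and has Mir365-2 14366 bases away on the same strand. Mir3068, at chr12:87437679-87437757 on the minus strand, lies in an intron of Alkbh1, a DNA and RNA demethylase, and in an exon of the lincRNA Gm29362. It also overlaps, on the same strand, an exon of a gene annotated as a snoRNA and likewise named Mir3068. The raised strands therefore come from separate chromosomes or, for Mir324 and Mir193a, from distant places on chromosome 11.

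LPS 2 stood apart before any miRNA was looked at. It held 17691405 reads against 2201520 to 5148083 in the other 5 libraries, of which 10927393 against 1498849 to 3168868 matched hairpins. Single-read sequences made up 18.6% of its distinct reads and 67.1% to 74.6% of those of the others, and whether this difference bears on the results below was not tested. Levels are therefore given as reads per 1000000 hairpin reads (RPM) with their read counts. Confidence intervals are 95% Wilson intervals, which treat each read as an independent draw and cover counting error only. Reads without molecular identifiers are not independent molecules, so the intervals may be too narrow even for that error.

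The largest of the 4 raised strands was miR-7a-5p. Its level was 14.5 (37 reads), 29.2 (50 reads) and 21.98 (52 reads) RPM in the 3 controls and 10.1 (32 reads), 922 (10080 reads) and 29.4 (44 reads) RPM in LPS 1, LPS 2 and LPS 3. LPS 1 was the lowest of all 6 libraries and LPS 3 was level with the highest control, while LPS 2 stood 43.9 times above the mean of the other 5 and 31.4 times above the highest of them. The 95% interval of the LPS 2 level was 905 to 941 RPM. Among all 319 tested arms this was the highest ratio of LPS 2 to the other 5 (log2 ratio 5.42, with a pseudocount of 0.5 RPM). The group means, 21.9 ± 7.35 RPM in controls and 320.6 ± 521 with LPS (SD, n = 3 each), show that the SD with LPS exceeded its mean.

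Next came miR-3068-5p, the scarcest of the 4 by the mean of the other 5 libraries (6.98 RPM), though miR-193a-3p was lower in control 1 and LPS 1. It had 5.47 (14 reads), 7.59 (13 reads) and 6.76 (16 reads) RPM in the controls and 5.05 (16 reads), 188 (2053 reads) and 10.01 (15 reads) RPM in LPS 1 to 3. LPS 2 was 26.9 times the mean of the other 5 (log2 ratio 4.66, rank 3 of 319), and the counting intervals of the other 5 libraries, at 13 to 16 reads each, all overlapped.

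miR-324-5p was the most abundant of the 4 in the other libraries. Its level was 42.2 (108 reads), 55.4 (95 reads) and 60.02 (142 reads) RPM in the controls, then 41.3 (131 reads), 388 (4245 reads) and 62.7 (94 reads) RPM in LPS 1 to 3. Here LPS 2 was 7.42 times the mean of the other 5 (log2 ratio 2.88, rank 8).

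miR-193a-3p, a strand studied for its effects on proliferation, was nearly as far from the others. The controls had 3.91 (10 reads), 12.3 (21 reads) and 14.8 (35 reads) RPM, and LPS 1 to 3 had 4.73 (15 reads), 74.9 (819 reads) and 16.0 (24 reads) RPM. LPS 2 was 7.25 times the mean of the other 5 (log2 ratio 2.80, rank 10), but only 4.68 times the highest of them. For each of the 4 strands control 1 and LPS 1 were the lowest libraries, below control 2, control 3 and LPS 3.

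**Figure D1:**
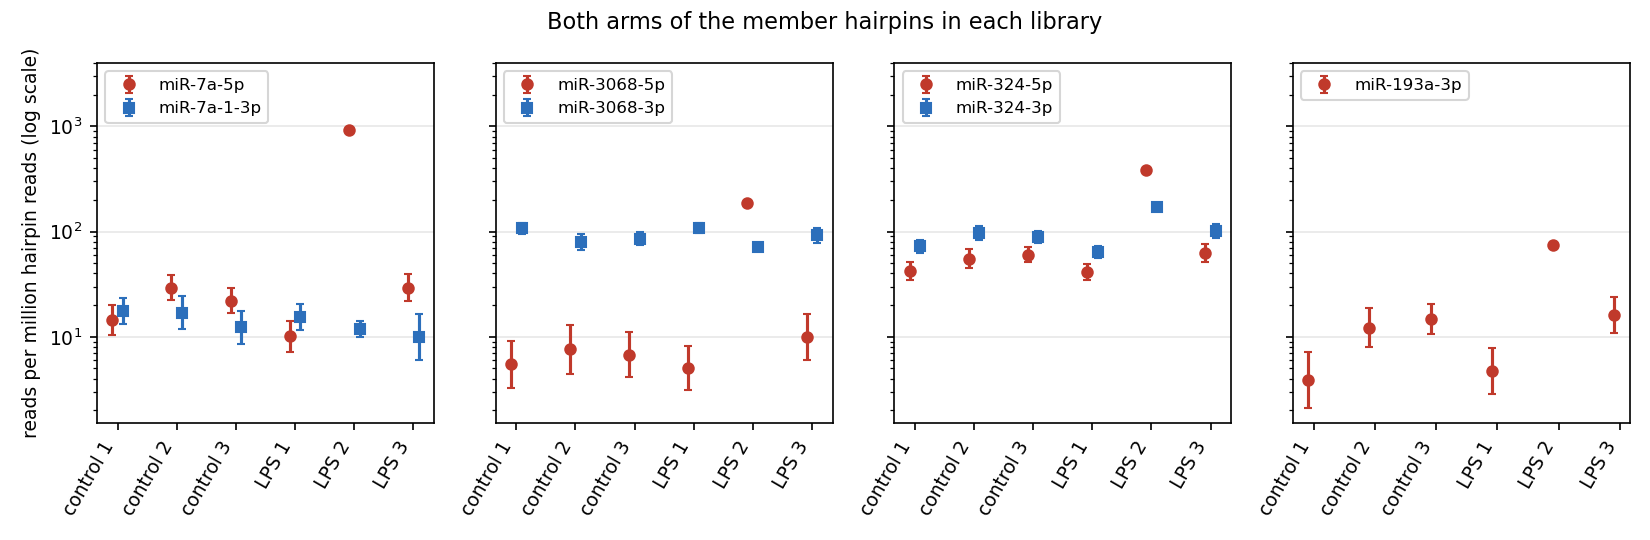
RPM (reads per 1000000 hairpin reads, log scale) of the raised strand (circles) and its partner (squares) in each of the 6 libraries, with 95% Wilson intervals for counting error, which are smaller than the symbols where none shows. In LPS 2 miR-7a-5p stood at 922 while miR-7a-1-3p stayed at 11.8, and miR-3068-5p stood at 188 while miR-3068-3p was at 71.1.

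A level at least 4 times the highest other library was seen in LPS 2 for 3.45% of the tested arms, 11 of 319, and 4 of those 11 are the raised strands described here, which were selected for it. The other 7 are miR-24-3p, miR-146a-5p, miR-425-3p, miR-186-3p, miR-146b-5p, miR-185-5p and miR-152-3p. Just inside that limit were miR-152-3p at 4.52 times and miR-193a-3p at 4.68 times the highest other library. Just outside it were miR-200a-3p at 3.44 times and the miR-29b-2 5p strand at 2.99 times. Standing above every other library by any margin was common in LPS 2, being true of 30.7% of arms (98 of 319) and of 5 of the 7 member arms tested. Across all 319 arms the median log2 ratio was -0.013, with 5% of arms below -0.75 and 5% above 1.70. The 4 raised strands together made up 0.157% of hairpin reads in LPS 2 and 0.00612% to 0.0118% in the other libraries, so they were a small part of the total in each.

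**Figure D2:**
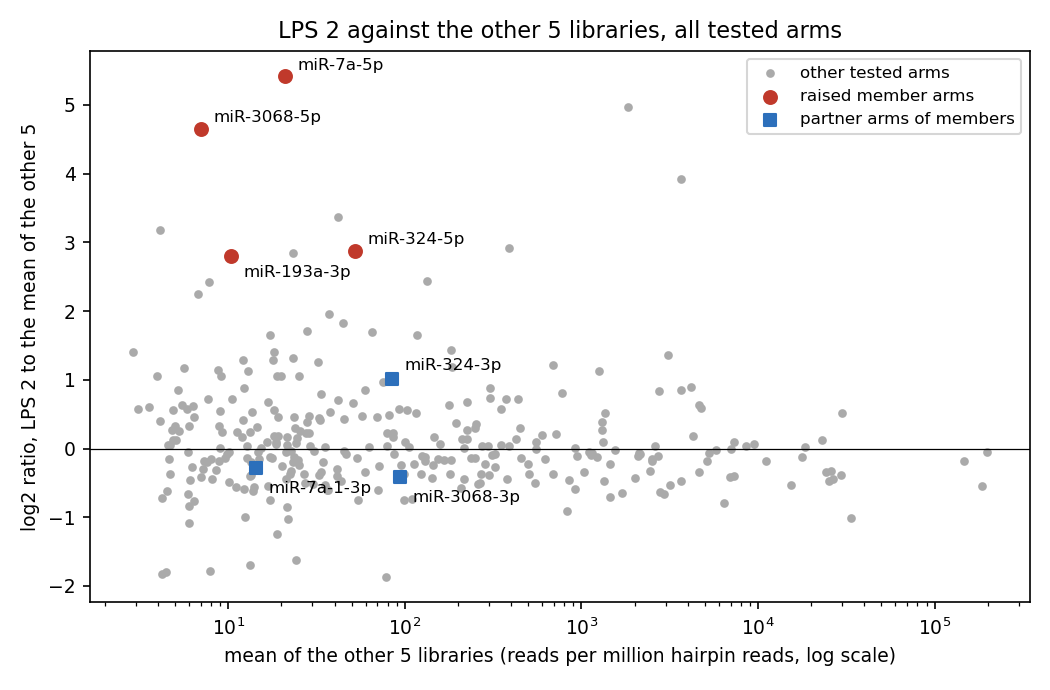
Log2 ratio of LPS 2 to the mean of the other 5 libraries against that mean (RPM, log scale) for the 319 tested arms, 1 point per arm. The raised member strands (circles) lie at 2.80 to 5.42, with means of 6.98 to 52.3 RPM in the other 5. Their partners (squares) lie at -0.41 to 1.02 among the other arms (grey).

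The partner strands answered whether one arm or both was raised. For Mir7-1 the 3p strand was not raised, since miR-7a-1-3p had 17.6, 16.9 and 12.3 RPM in the controls and 15.5, 11.8 and 10.01 in LPS 1 to 3 (45, 29, 29, 49, 129 and 15 reads). LPS 2 thus lay inside the range of the other 5, at a log2 ratio of -0.28. For Mir3068 the 3p strand was the more abundant one in the other libraries and was lowest in LPS 2. miR-3068-3p measured 108, 79.4 and 85.8 RPM in the controls and 108, 71.1 and 92.1 in LPS 1 to 3 (log2 ratio -0.41).

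For Mir324 both strands were higher in LPS 2, by unequal factors. miR-324-3p had 72.3, 97.4 and 89.2 RPM in the controls and 64.1, 173 and 101 in LPS 1 to 3, so that LPS 2 was 2.03 times the mean of the other 5 against 7.42 times for miR-324-5p. For Mir193a no partner could be followed, because miR-193a-5p had 1 read in control 1 and 0 in the others. At 0 of 10927393 hairpin reads in LPS 2, a floor of 3 reads allows up to 0.275 RPM.

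These shifts can be read as a change in the ratio of the arms, with a pseudocount of 0.5 RPM added to each arm. The scaling of a library enters this ratio only through that pseudocount. For Mir7-1 log2(5p/3p) ran from -0.59 to 1.51 in the other 5 libraries and was 6.23 in LPS 2. For Mir3068 it ran from -4.28 to -3.14 and was 1.40 in LPS 2, so that the strand with fewer reads in the 5 other libraries was the one with more reads in LPS 2. For Mir324 it ran from -0.81 to -0.57 and was 1.17 in LPS 2, again with the order of the arms turned. Over the 108 hairpins with both arms tested, the median absolute shift between LPS 2 and the mean of the others was 0.38. A shift of at least 2 was seen in 9.26% of them (10 of 108), and Mir7-1 had rank 1 at 5.78 and Mir3068 rank 2 at 5.09. Mir324 had rank 12 with 1.86, below that limit. These hairpins were selected for a raised arm, so their place in this order partly restates the selection. Among the other 7 arms at least 4 times above the rest in LPS 2, 7 partner strands were tested, of which 3 stood above every other library there and 4 did not.

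**Figure D3:**
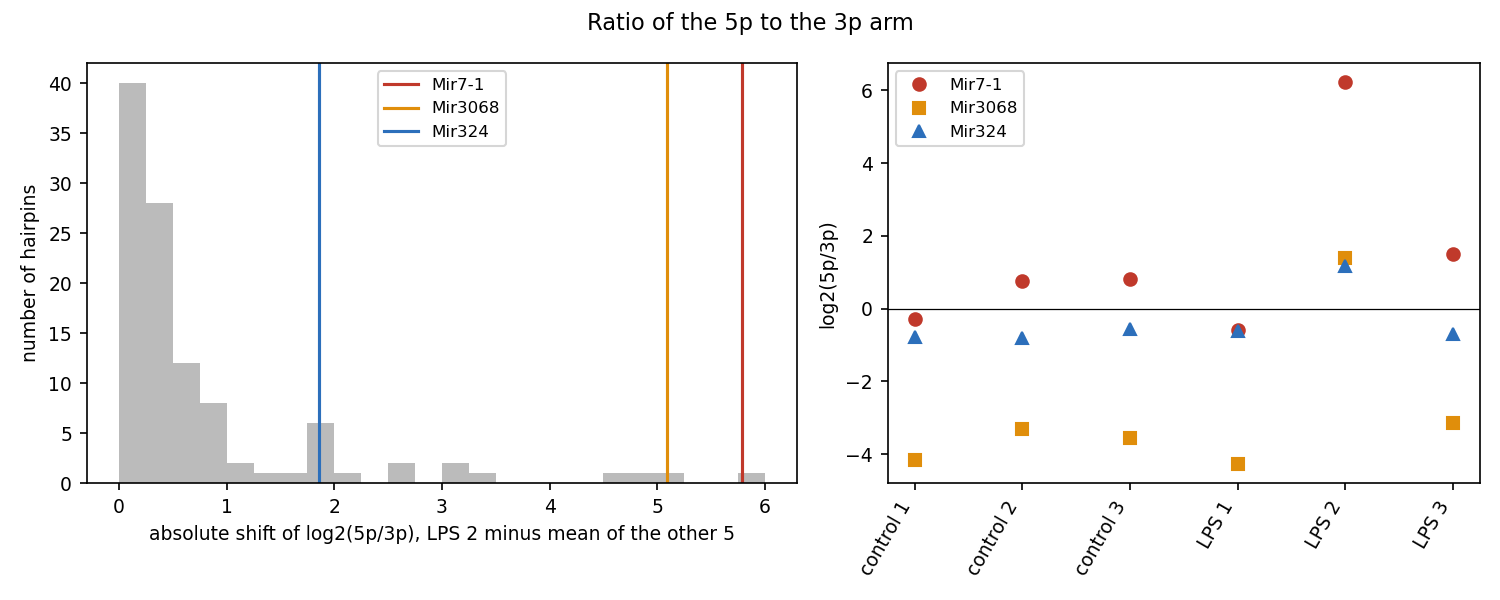
Left, number of hairpins by the absolute difference in log2(5p/3p) between LPS 2 and the mean of the other 5 libraries, for 108 hairpins with both arms tested, with lines for the 3 members. Right, log2(5p/3p) of these 3 in each library, where LPS 2 is the highest point for each (6.23, 1.40 and 1.17).

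miR-7a-5p can come from Mir7-1 and Mir7-2, whose mature 5p sequences are identical, and the hairpins are shown in 5′ to 3′ order with both mature arms in capitals, because a 5p read can tell the loci apart only by bases beyond its capitals.
Mir7-1: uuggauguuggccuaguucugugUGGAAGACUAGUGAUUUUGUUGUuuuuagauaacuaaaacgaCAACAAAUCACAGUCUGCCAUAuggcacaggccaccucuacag
Mir7-2: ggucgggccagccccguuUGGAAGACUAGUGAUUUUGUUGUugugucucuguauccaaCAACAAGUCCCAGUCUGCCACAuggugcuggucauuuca
Of the 10080 reads in LPS 2, 9947 matched both hairpins, 132 matched Mir7-1 alone and 1 matched Mir7-2 alone. In the other 5 libraries 2 or 3 reads each matched Mir7-1 alone and 0 matched Mir7-2 alone. A read that carries a further U past the shared end can match Mir7-1 by its sequence or by an added base, so these reads do not fix the locus.

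The 3p strands differ between the loci by A7G, A10C and U21C (miR-7a-1-3p first, positions from the 5′ end), and miR-7a-2-3p had 0 reads in all 6 libraries while miR-7a-1-3p had 15 to 129. The same limit of 0.275 RPM holds for it in LPS 2, and limits of 0.947 to 2.00 RPM hold in the other 5. The third gene of the family, Mir7b, yields a 5p strand with the same seed that differs from miR-7a-5p by A10U. It had 0 reads in every library. No other arm with reads shared a seed with any of the 4 raised strands, and Mir193b, the paralogue of Mir193a, had 0 reads. The nearest annotated neighbour of Mir193a, Mir365-2, gives a 3p strand identical to that of Mir365-1, which was at 4.30 RPM in LPS 2 and 1.56 to 4.65 in the others and was too scarce to be tested.

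The end variants of miR-324-5p had other shares in LPS 2 than in the other 5 libraries, and the 4 forms concerned are shown as read (DNA letters, bases past position 20 in capitals).
20 nt: cgcatcccctagggcattgg
22 nt: cgcatcccctagggcattggTG
23 nt: cgcatcccctagggcattggTGT
23 nt, last base not in the hairpin: cgcatcccctagggcattggTGA
The 23-nt form that ends with the RefSeq strand led in the other 5 libraries, where it took 60.2%, 43.2%, 41.5%, 61.1% and 40.4% of the reads of the arm (controls 1 to 3, LPS 1 and LPS 3), and it took 20.9% in LPS 2. The 22-nt form, 1 base shorter, took 12.0%, 25.3%, 26.8%, 18.3% and 27.7% in those 5 and 68.6% in LPS 2. Both forms were nonetheless at a higher RPM in LPS 2, the 22-nt form by 22.2 times the mean of the other 5 and the 23-nt form by 3.26 times. The 20-nt form had 140 reads in LPS 2 and 0 or 1 read in each of the others.

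Reads of miR-324-5p with unmatched bases at the 3′ end, which include nucleotides added after cutting, made up 12.2% to 23.2% of the arm in the other 5 libraries and 3.06% in LPS 2. The form ending in an unmatched A was at 5.86 RPM in LPS 2 and 1.96 to 6.67 in the others, inside their range. The 5′ start held to the RefSeq start in all reads of the other 5 libraries and in 4243 of 4245 reads of LPS 2, so the seed was the same. A leading sequence that differed between LPS 2 and the other 5 was seen for 17.6% of tested arms (56 of 319). Among the 7 member arms tested, miR-324-5p alone had one.

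**Figure D4:**
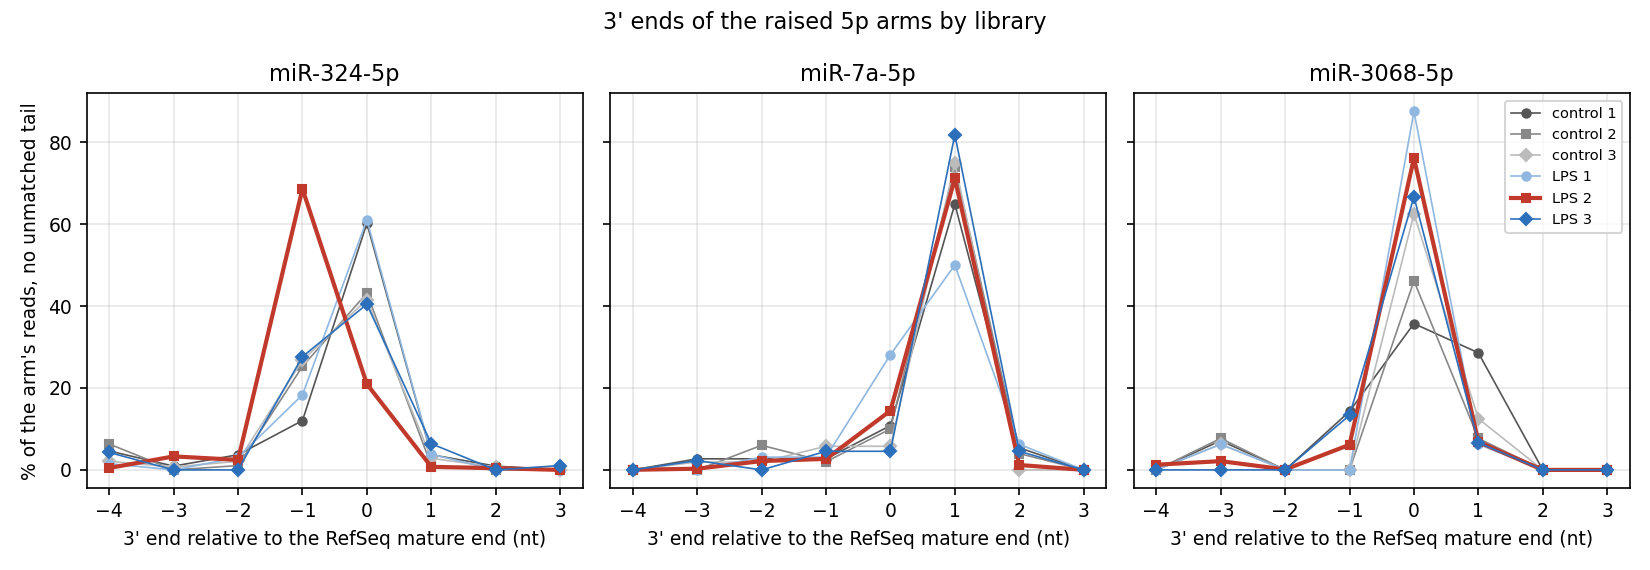
Share of the reads of miR-324-5p, miR-7a-5p and miR-3068-5p that end at each position relative to the RefSeq mature end (nt), without an unmatched tail, 1 line per library. For miR-324-5p the peak lies at 0 in the other 5 libraries and at -1 in LPS 2 (68.6%), while for miR-7a-5p and miR-3068-5p all 6 libraries share the peak, at +1 and 0.

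miR-7a-5p kept its leading form. The 24-nt read, 1 base longer than the RefSeq strand, led in all 6 libraries with 62.2%, 64.0% and 75.0% of the arm in the controls and 46.9%, 71.1% and 81.8% in LPS 1 to 3. Its forms are shown with the bases past position 21 in capitals, since they differ at the 3′ end.
22 nt: tggaagactagtgattttgttG
23 nt: tggaagactagtgattttgttGT
24 nt: tggaagactagtgattttgttGTT
25 nt, last base not in the hairpin: tggaagactagtgattttgttGTTA
The 25-nt form had 472 reads in LPS 2 and 0 to 2 reads in each other library. In LPS 2 the 24-nt form was 45.0 times the mean of the other 5, the 23-nt form 78.1 times and the 22-nt form 31.9 times. The other 5 libraries together held 215 reads of this arm, so the shares of its rarer forms are poorly measured there. The 5′ start matched RefSeq in 99.8% of reads in LPS 2 and in 88.0% to 95.5% in the others.

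For miR-3068-5p the RefSeq form of 24 nt led in each library, with 35.7%, 46.2% and 62.5% in the controls and 81.3%, 73.3% and 60% in LPS 1 to 3. That form was 34.8 times the mean of the other 5 in LPS 2. miR-193a-3p was nearly a single sequence, its 22-nt RefSeq form, with 90.0% to 100% of reads in the other 5 libraries and 99.3% in LPS 2. It was 7.42 times the mean of the other 5.

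Each tested partner strand had the same leading read in LPS 2 as over the other 5 libraries. For miR-324-3p that 21-nt read was at 39.4 RPM in LPS 2, inside the range of the others (16.4 to 43.2). Its form 1 base longer at the 3′ end was at 22.8 RPM against 2.33 to 8.01. The most abundant form that starts 2 bases later, and so has another seed, was at 23.9 against 6.42 to 8.99. Reads at the RefSeq start made up 51.0% of this arm in LPS 2 and 51.4% to 70.4% in the others. The 21-nt read of miR-7a-1-3p that lacks the last base was at 3.02 RPM against 0 to 1.17 in the others (33 reads in LPS 2), while the 22-nt form of the arm was at 5.31 against 4.003 to 5.50. Of its reads, 95.3% in LPS 2 and 69.4% to 93.3% in the others began at the RefSeq start. The leading read of miR-3068-3p starts 1 base past the RefSeq start. Only 43.8% of that arm in LPS 2 and 34.6% to 43.3% in the others began at that start. Most reads of miR-3068-3p therefore had a seed other than the one marked above.

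The 4 strands did not all share a length, GC content or first base. Their leading reads in LPS 2 were 24, 24, 22 and 22 nt long (miR-7a-5p, miR-3068-5p, miR-324-5p and miR-193a-3p) against a median of 22 nt over the 319 arms. Their GC content was 33.3%, 41.7%, 63.6% and 50% against a median of 50%, so they lay on both sides of it. The strands miR-7a-5p and miR-3068-5p begin with T in the reads, as 38.2% of arms do, whereas miR-324-5p begins with C and miR-193a-3p with A.

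Compared by treatment over all 6 libraries, none of the 4 strands passed. edgeR's quasi-likelihood test called 0% of the 319 arms at an adjusted p of 0.05, with 7 higher and 1 lower at an unadjusted p under 0.05. DESeq2 also called 0, with 4 higher and 0 lower unadjusted. It gave no p for 5 of the 319 arms, among them miR-7a-5p and miR-3068-5p, so it did not test these strands. The log2 fold change of LPS against control was 3.87 (SE 1.62) for miR-7a-5p, 3.37 (SE 1.37) for miR-3068-5p, 1.63 (SE 0.83) for miR-324-5p and 1.68 (SE 0.98) for miR-193a-3p in edgeR. Each of these values was set by 1 library, as the fit without it shows.

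Without LPS 2 the same fit again called 0% of 319 arms, with 1 higher and 1 lower at an unadjusted p under 0.05. The log2 fold changes were then -0.27 (SE 0.45), 0.07 (SE 0.40), -0.07 (SE 0.22) and -0.15 (SE 0.62) in the same order, with an adjusted p of 0.999 each in edgeR. The partner strands stayed between -0.27 and 0.10. With replicate numbers as a block the values were 1.59, 1.93, 0.90 and 1.14 in edgeR, and no arm was called.

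One processing choice ended this outcome. When the low-count filter was dropped and all 974 arms were fitted, edgeR called 2.16% of them higher with LPS (21 arms). All 4 raised strands were among the calls, which is a description and no support, because the strands were selected on LPS 2 and the calls draw on it. Their log2 fold changes in that fit, 3.89, 3.38, 1.65 and 1.69, were nearly those of the filtered fit, and their SE were smaller (0.28, 0.35, 0.27 and 0.36). The level in each library is the same in both fits, and the unfiltered fit was not repeated without LPS 2.

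Other miRNAs give the setting of these values. The miRNAs that LPS is known to move in macrophages, such as miR-146a, miR-155 and miR-132, had 13 tested arms. Of these 13, 6 stood above every other library in LPS 2, as did 30.7% of all 319 arms. A level at least 4 times the highest other library was seen for 2 (miR-146a-5p and miR-146b-5p), and for 3.45% of all arms. The median log2 ratio of the 13 was -0.025 against -0.013 over all arms. The 13 went both ways, from -1.83 for miR-212-3p to 3.92 for miR-146a-5p. Of the miRNAs named above, miR-155-5p was at 1.70 and miR-132-3p at 1.05, while miR-125b-5p, also in the list, was at -0.71. The summed level of miR-223, miR-142, miR-21a and miR-146a, which are abundant in myeloid cells, was 161439 to 205054 RPM in the other 5 libraries and 217587 in LPS 2. The higher sum in LPS 2 came with miR-146a-5p, itself among the 11 arms above, at 55427 RPM there against 2822 to 4515 in the others. Without it the sum was 162161 RPM in LPS 2 and 158420 to 200539 in the others, so these miRNAs were abundant in every library. Most of this sum was miR-21a-5p, at 128947 RPM in LPS 2 and 122793 to 164339 in the others. The sum hides that miR-142-5p was below every other library in LPS 2 (18107 against 23282 to 27085). miR-142-3p was above every other (7757 against 3741 to 4722), and miR-223-3p lay inside their range.

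Markers of other cell types ranged from absent to a level above that of some members. miR-375, abundant in endocrine cells where miR-7 is abundant too, was at 2.01 RPM in LPS 2 and 0 to 2.00 in the others. The neuronal miR-9, the only neuronal marker with reads since miR-124 had 0, summed to 0.366 RPM in LPS 2 and 2.11 to 3.47 in the others. Epithelial miR-200 family members, miR-141 and miR-205 summed to 173 RPM in LPS 2 against 78.2 to 98.6. Within that list miR-200c-3p, which did not pass the low-count filter, was at 29.6 RPM (323 reads) in LPS 2 against 0.947 to 4.08, and miR-200a-3p at 43.7 against 5.25 to 12.7. miR-141-3p, at 20.6 against 15.3 to 37.9, and miR-429-3p, at 15.9 against 13.7 to 20.7, lay inside the range of the others. The hepatocyte miR-122 was at 1.83 (20 reads) against 0 to 0.423. Endothelial miR-126a summed to 50.3 against 33.8 to 46.9, erythroid miRNAs reached at most 1.17 and muscle miRNAs at most 0.583 RPM. The part of such cells in the levels of LPS 2 was not tested.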

How the data were processed

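The authors prepared small RNA libraries with an Illumina TruSeq kit, sequenced them on a HiSeq 1000, removed adaptors (custom perl scripts, Btrim64) and ran mirAnalyzer, whose output was not used here. The deposited files hold raw counts of each distinct trimmed read of 11 to 40 nt, without names or normalization. The labels name build mm9, but the files hold no coordinates.

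Each read of 18 nt or more was placed on the 1174 hairpins of GENCODE M21 (GRCm38) without mismatches, except for up to 3 bases at its 3′ end. The arm was set by the hairpin midpoint, and arms with 50% or more of their reads in common were merged. A read counted once. Reads of members that match another locus cannot be told apart. Trimming, and the absence of a genome search, mean that a read is assigned by sequence alone, so a fragment of another RNA with the same sequence would be counted.

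Arms passing filterByExpr were tested with edgeR 4.0.16 (R 4.3.3; quasi-likelihood, TMM, Benjamini-Hochberg over all tested arms, two-sided). DESeq2 1.42.0 and other settings were alternatives. Deviations of same-numbered control and LPS libraries correlated at 0.595, 0.259 and 0.277, against -0.387 to 0.154 for other pairs. The numbers come from the sample titles and were taken to pair the libraries. The text names every arm of the members, their seed relatives, the hairpin nearest Mir193a, and the fixed lists of LPS-linked and cell type miRNAs. The hairpin nearest Mir324, Gm44349, lies 31229 bases away on the plus strand and was not among the hairpins searched. The members and lists were chosen with earlier results of these data known.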

Additional observations from a re-analysis of the deposited data

How the results depend on the processing

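Fits across all arms called 0 arms in either direction under library totals without scaling, DESeq2, exact matches, reads of a single arm, the replicate block and each library left out (0 to 0), and 21 arms higher without the low-count filter, the outcome given with the member values above. The replicate block gave log2 fold changes of 1.59 for miR-7a-5p and 1.93 for miR-3068-5p and changed no call. DESeq2 gave no p for either. The fit on reads of a single arm only gave no value for miR-7a-5p, most of whose reads match both Mir7-1 and Mir7-2. Those matching Mir7-1 alone were 132 in LPS 2 and 2 or 3 in each other library. Without LPS 2 the log2 fold change turned to -0.27 for miR-7a-5p, -0.073 for miR-324-5p, -0.15 for miR-193a-3p, -0.12 for miR-324-3p and 0.10 for miR-3068-3p. The last was also 0.16 without control 1. Over libraries left out the log2 fold change ran from -0.27 to 4.44 for miR-7a-5p, 0.07 to 3.92 for miR-3068-5p, -0.07 to 2.09 for miR-324-5p, -0.15 to 2.19 for miR-193a-3p, -0.12 to 0.63 for miR-324-3p and -0.23 to 0.16 for miR-3068-3p. The log2 ratio of LPS 2 to the others moved by more than the spread of the other 5 only to 4.01 for miR-3068-5p with a pseudocount of 5 RPM, which lowers ratios of scarce arms by construction, and to 4.41 for miR-324-5p from the leading sequence alone, the 22-nt form. That form was picked by its level summed over all 6 libraries, most of which is LPS 2, so its higher ratio restates the choice. The 23-nt form that led in the other 5 was 3.26 times their mean in LPS 2, against 7.42 times for the whole arm. Counting sequences with at least 2 reads turned the excess of the leading form in LPS 2 from 5.08 to -5.89 percentage points for miR-7a-5p. It turned from 16.1 to -1.98 for miR-3068-5p and from 3.74 to -0.61 for miR-193a-3p, since shares then rise in the shallow libraries. Over libraries left out these differences were 0.307 to 9.04, 10.8 to 22.2 and 2.36 to 4.86, and 44.1 to 48.0 for miR-324-5p. With 10 to 52 reads per library for 3 of the 4 strands outside LPS 2, depth limits how well the shares of their forms are known there.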
